A study of Gallus gallus with 6 samples.

Results

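Solute carriers are membrane proteins that move small molecules, among them sugars, amino acids, lactate, metal ions, nucleosides and vitamins, across the plasma membrane and the membranes of organelles. They were taken here as the genes whose single symbol in the platform annotation begins with SLC, a family number, the letter A and a member number. That rule gave 259 genes with 603 probe sets in 47 families, of 13008 named genes and 37690 probe sets on the array. The organic anion carriers named SLCO were not members and were counted apart.

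The samples were chick embryonic tissue. In the induced group, lateral head mesoderm of embryos at stage HH6 was grafted into the extraembryonic area opaca of hosts at stage HH4-, and the epiblast it had lain on was collected 12 hours later without the graft (3 samples). The control was area opaca from the contralateral, ungrafted side, collected at the same time (3 samples). The question behind the comparison was which transcripts differ when this mesoderm induces sensory placode progenitors in epiblast that would not form them. Both groups are host tissue dissected by hand, and no breed, transgene or further agent is named. The labels do not say whether a sample pools several embryos.

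Carriers are grouped by sequence into numbered families, and members of a family often share a kind of substrate. Some use the sodium, proton or chloride gradient to pull a substrate in, others exchange one solute for another, and others only let a solute run down its own gradient. The area opaca is the outer, extraembryonic ring of the chick blastoderm, which lies on the yolk and spreads over it. Glucose enters embryonic cells mainly through facilitative carriers of family 2, lactate leaves with a proton through family 16, and family 25 exchanges metabolites across the inner mitochondrial membrane.

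Values are MAS5 signals in array units, brought to a common distribution by quantile normalization. Each gene is represented by its brightest probe set, and differences are induced minus control on the log2(signal + 16) scale, which understates the difference of weak genes. A probe set was tested when its mean over the 6 arrays lay at or above the 40th percentile, 4.5 on the log2 scale. Of the members, 184 genes in 45 families and 327 probe sets met this. Of the 75 genes left out, 69 stayed under 16 units on every array before normalization. Even among the tested genes, 15 were under 16 units on all 6 arrays and 109 were at or above it on all 6.

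The arrays differed in brightness before normalization. Their medians were 18.35, 8.3 and 7.5 units in induced samples 1 to 3, against 17.7, 7.7 and 9.6 units in control samples 1 to 3. The share of solute carrier probe sets under 16 units ran from 54.2% to 69% in induced samples and from 54.7% to 65.7% in control samples. Markers of other tissues also differed. Of 24 blood and endothelial markers, 18 had a probe set and 15 were tested. 3 of those (TAL1, LMO2 and KDR) fell and none rose at an adjusted p under 0.05, and their summed signal was 829.7 to 2153.6 units in induced samples, against 3659.6 to 4018.5 units in control samples. Of 23 markers of yolk sac endoderm, 18 were tested and 1, FABP2, fell at that adjusted p. Their sum was 2469.4 to 3011 units in induced samples, against 3623.4 to 9070.6 units in control samples. At an unadjusted p under 0.05, 11 of the 15 blood and endothelial markers and 11 of the 18 endoderm markers were lower. None of either list was higher, and 6.02% of all genes were lower. The median differences were -1.055 and -0.89. No marker of either list was at 0 on all arrays, though the erythroid marker RHAG and the endodermal markers AFP, RBP4 and DAB2 stayed under 16 units throughout. Of 14 mesoderm markers 7 were tested and NKX2-5 rose, with sums of 734.3 to 1706.6 units in induced samples, against 190.3 to 1334.8 units in control samples. Of 9 epiblast and ectoderm markers 9 were tested and none passed, with 2 higher (OTX2 at 2.08 and SOX3 at 0.49) and 1 lower (KRT7 at -0.32) at an unadjusted p under 0.05. The epithelial adhesion genes CDH1 and EPCAM differed by 0.01 and 0.06. The part of blood, endoderm or mesoderm in the carrier values below was not tested, and in dissected tissue fewer cells of a type and less RNA per cell cannot be told apart.

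No solute carrier gene passed limma's moderated test at a Benjamini-Hochberg adjusted p under 0.05, taken over all 10118 genes tested. The smallest adjusted p among the 184 was 0.0544, and 9 of them had an adjusted p under 0.25. Over all genes, 38 were called, a share of 0.376%. Among the 327 probe sets 0 were called as well, with a smallest adjusted p of 0.0957, where 0.0973% of all probe sets were. At an unadjusted p under 0.05 there were 24 genes (13%, against 11.6% of all genes) and 40 probe sets (12.2%, against 9.76% of all probe sets), shares near the background. Leaving out 1 array gave up to 2 genes under the adjusted threshold: SLC38A6 without induced sample 3, and SLC38A6 and SLC2A14 without control sample 1. These were 1 of 182 solute carriers, against 120 of all 10136 genes, and 2 of 182, against 44 of all 10113 genes. Averaging all probe sets of a gene, in place of taking the brightest, gave 1, SLC38A6, against 30 of all 10118 genes. The solute carrier values below are therefore given as measurements and not as calls.

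The differences were small and lay more often below 0 than those of other genes. Of the 184 genes, 117 (63.6%) had a difference below 0 and 67 (36.4%) above it, whereas 46.8% of all genes tested lay below 0. The median difference was -0.09 for solute carriers and 0.02 for all genes. Measured against the mean of the control arrays, the median over solute carriers was -0.07, -0.11 and -0.06 in induced samples 1 to 3, against -0.03, 0.03 and 0.00 in control samples 1 to 3. The 3 induced medians therefore lay below the 3 control medians. The closest, induced sample 3 at -0.06 and control sample 1 at -0.03, were about as far apart as neighbouring control arrays. Since a gene can pass the filter through the group where it is high, the same was counted over all 259 members with no filter. There 143 (55.2%) lay below 0, against 47.1% of all genes, and the median was -0.03. The 10th and 90th percentiles of the difference were -0.51 and 0.23 for solute carriers, and -0.36 and 0.33 for all genes.

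Of the 24 genes at an unadjusted p under 0.05, 5 (2.72%) were higher in induced tissue, where 5.61% of all genes were, and 19 (10.3%) were lower, where 6.02% of all genes were. With no filter 7 were higher and 18 lower of all 259 members, where 10.2% of all genes were under that p in either direction. The excess of lower genes in the filtered count therefore partly depends on the filter. With each array centred on its median in place of quantile normalization the split was 3 higher and 14 lower, where 6.29% of all genes were under that p in either direction. With no normalization it was 0 and 5, where 2.33% of all genes were. All genes also lay lower under these scalings: 53.7% were below 0 when median-centred and 57.3% with no normalization. Of solute carriers, 66.1% and 67.8% were. The 24 became 11 of 183 without induced sample 2, where the share of all genes was 6.3%, so that these counts moved together with the background. Counted by whether the arrays overlapped, all 3 induced values lay above all 3 control values in 13 genes (7.07%), against 9.13% of all genes. All 3 lay below in 17 (9.24%), against 7.42% of all genes. These shares of non-overlapping genes are near the background, and only 3 solute carriers (1.63%, against 1.81% of all genes) differed by 1 or more on the log2 scale.

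**Figure D1:**
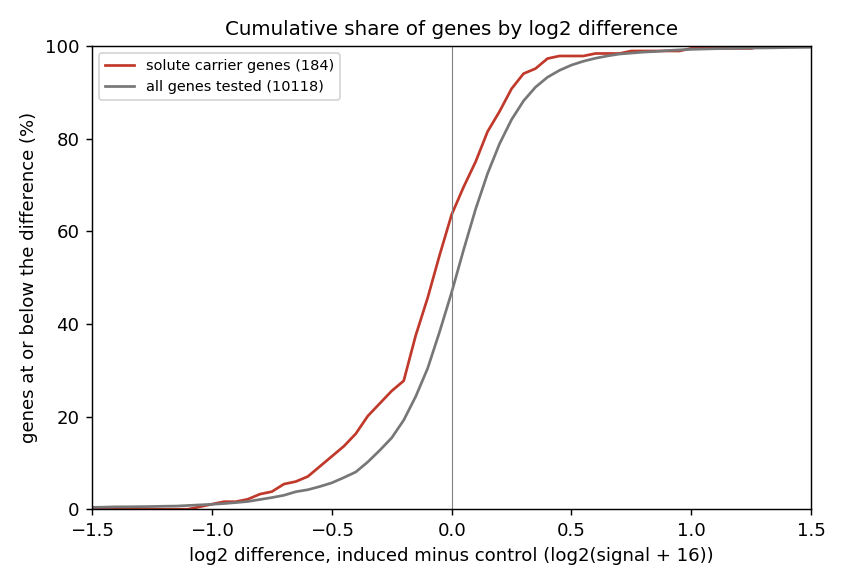
Percentage of genes (vertical axis) whose log2 difference, induced minus control, is at or below the value on the horizontal axis, for the 184 solute carrier genes and for all 10118 genes tested. The solute carrier line lies to the left between about -0.5 and 0.5 and crosses 0 at 63.6%, where the line of all genes crosses at 46.8%.

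The amino acid carriers held both the member with the largest positive difference and one of the most negative. Of 39 such genes 26 were tested, 12 with a difference above 0 and 14 below it, with a median of -0.03. SLC38A6 belongs to the family of sodium-coupled neutral amino acid carriers that also supplies cells with glutamine. It read 301.2, 334.6 and 255.2 units in induced samples, against 164.2, 88.1 and 92 units in control samples. Every induced array was above every control array, and control sample 1 was the highest of the controls. On the log2 scale this was 8.28 ± 0.19 in induced samples and 6.98 ± 0.44 in control samples (SD, n = 3 each), a difference of 1.30 (SE 0.24, limma adjusted p 0.0544). Its other probe set read 78.9, 109.2 and 131.2 units in induced samples, against 43.3, 48.5 and 51 units in control samples, a difference of 0.92, again with no overlap. Across the 18 other settings tried its difference ran from 1.03 to 1.54.

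The other 5 tested members of family 38 had smaller differences. SLC38A2, the glutamine and alanine carrier that cells raise when amino acids run short, read 553, 438 and 355.9 units in induced samples, against 703.7, 491.4 and 563.6 units in control samples. The groups overlapped, and the difference was -0.38 (SE 0.19, adjusted p 0.493), with -0.53 at its other probe set. SLC38A1 differed by 0.24 and SLC38A11, under 16 units on every array, by 0.23.

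SLC3A1 is the heavy chain that brings the carrier of cystine and dibasic amino acids to the cell surface. It read 47.8, 61.1 and 78.6 units in induced samples, against 120.7, 102.7 and 197 units in control samples. The groups did not overlap, at 6.28 ± 0.28 and 7.24 ± 0.44 on the log2 scale (SD, n = 3 each), a difference of -0.96 (SE 0.26, adjusted p 0.165). SLC7A1, a carrier of arginine and lysine, was dim, at 9 to 12.8 units in induced samples and 19.6 to 23.7 units in control samples, a difference of -0.46 (adjusted p 0.278). SLC7A5, the light chain of the large neutral amino acid exchanger, read 345.3, 272.5 and 250.5 units in induced samples, against 319.5, 261.6 and 312.2 units in control samples. Its groups overlapped, the difference was -0.05 (SE 0.18), and its sign turned without its shared-match probe sets and without induced sample 3 or control sample 1. SLC7A11, the cystine and glutamate exchanger, stayed at or under 18.1 units on all arrays and was below the filter. No probe set carried the symbol SLC3A2, the heavy chain paired with SLC7A5, or SLC1A5.

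**Figure D2:**
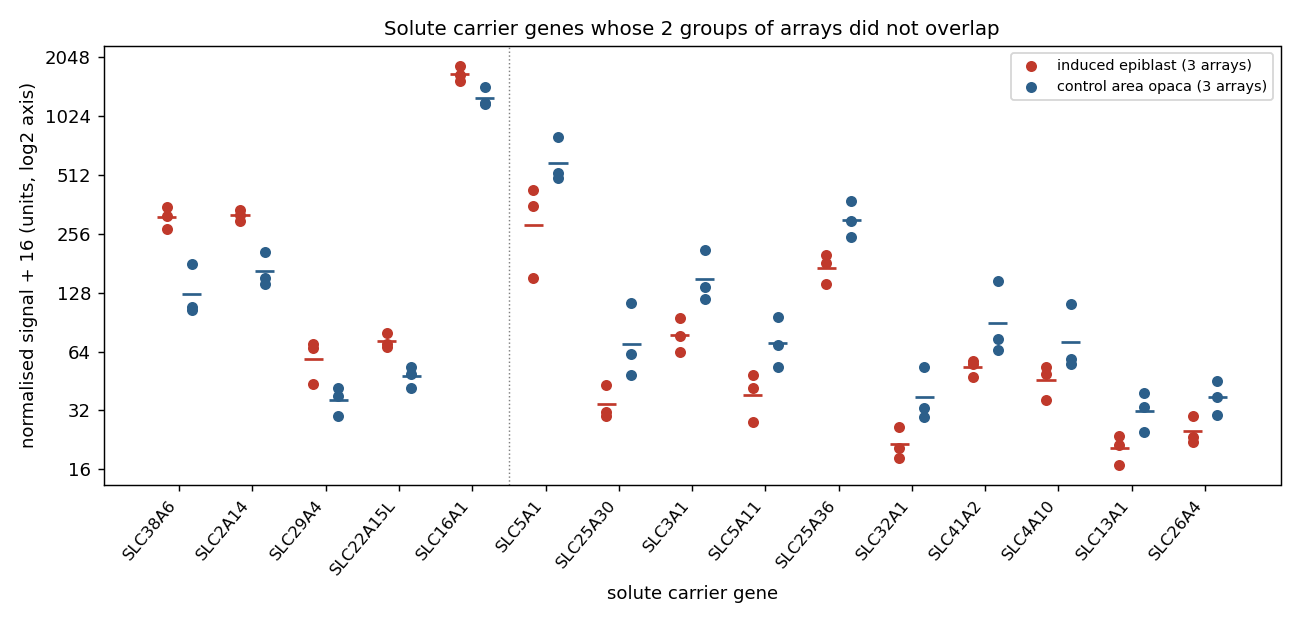
Normalised signal + 16 (vertical axis, log2 scale) on the 3 induced and the 3 control arrays for the 15 solute carrier genes whose groups did not overlap and that were chosen by size among those with an unadjusted p under 0.05; each point is an array and each bar the group mean of log2 values. The 5 genes left of the dotted line are higher in induced samples, led by SLC38A6 and SLC2A14, and the 10 to its right are lower, several of them near the floor of 16.

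The sugar carriers had the most negative median of any class, -0.35 over the 13 tested of 23 genes, with 3 above 0 and 10 below it. The median was -0.37 with median-centred arrays and -0.39 with no normalization. The median of all genes also moved, from 0.02 to -0.02 and -0.04. At an unadjusted p under 0.05, 1 of the 13 was higher and 5 were lower, where 5.61% and 6.02% of all genes were. These sugar carriers were of different kinds. SLC5A1, the sodium-glucose cotransporter of gut and kidney that can gather glucose against its gradient, read 413.5, 136.5 and 340.6 units in induced samples, against 781.7, 478.2 and 511 units in control samples. Induced sample 2 was far below the other two, and the groups did not overlap. The log2 means were 8.16 ± 0.80 and 9.21 ± 0.37 (SD, n = 3 each), a difference of -1.05 (SE 0.35, adjusted p 0.264). All 3 of its tested probe sets lay lower in induced samples with no overlap, the others by -0.57 and -1.20, and over the 18 other settings the difference ran from -1.35 to -0.60.

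SLC5A11, a sodium cotransporter of myo-inositol, read 25.5, 12 and 32.5 units in induced samples, against 79.8, 53.1 and 37.5 units in control samples. Its groups did not overlap and the difference was -0.88 (SE 0.27, adjusted p 0.229), while its dim other probe set differed by -0.06 with overlap. SLC5A11 was counted in the sugar class, whereas the myo-inositol carriers SLC2A13 and SLC5A3 were placed under other or unknown substrate. SLC5A9, a cotransporter of mannose and glucose, had a difference of -0.72 with overlapping groups (adjusted p 0.370). Of the 6 family 5 genes tested 5 lay below 0, with a family median of -0.59. SLC37A1, which exchanges glucose 6-phosphate across the endoplasmic reticulum, had a difference of -0.58, and all 4 tested members of family 37 lay below 0, with a median of -0.25.

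Family 2, the facilitative glucose carriers, divided. SLC2A1 (GLUT1), the glucose carrier of most embryonic cells, read 694.7, 508.8 and 818.6 units in induced samples, against 832.9, 1165.6 and 825.4 units in control samples. The groups only just failed to overlap, and the difference was -0.48 (SE 0.19, adjusted p 0.372). SLC2A14, which in human is a close copy of GLUT3 and for which the chicken RefSeq entry lists GLUT3 and SLC2A3 as synonyms, lay the other way. It read 324.3, 303.8 and 282.5 units in induced samples, against 191.9, 125.4 and 137 units in control samples. The induced arrays lay close together and all above the controls, at 8.32 ± 0.09 and 7.37 ± 0.29 on the log2 scale (SD, n = 3 each), a difference of 0.95 (SE 0.19, adjusted p 0.0798). Across the other settings it ran from 0.78 to 1.11. No other probe set of SLC2A14 was tested, and no probe set carries SLC2A3 as its own symbol.

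Markers of other tissues were also lower beside the sugar carriers. The mean deviation of the 18 yolk sac endoderm markers from the control mean was -0.73, -1.04 and -0.94 in induced samples 1 to 3, against -0.08, -0.52 and 0.60 in control samples 1 to 3. For the 15 blood and endothelial markers it was -1.02, -1.495 and -0.67 in induced samples, against -0.03, 0.14 and -0.11 in control samples. Induced sample 2 was the lowest array for both of these marker lists and for SLC5A1, SLC5A11, SLC5A9 and SLC2A1. It was also the lowest for SLC37A1, SLC37A2 and SLC45A1. It was not for SLC2A8, SLC2A10, SLC2A11L5, SLC2A14, SLC37A4 and SLC45A4. The median over all solute carriers was likewise lowest in induced sample 2, at -0.11. Control sample 2 was the lowest control for the endoderm markers and SLC5A1, but the highest array for SLC2A1 and SLC5A9. The part of these markers in the sugar carrier values was not tested.

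Among carriers of mono- and dicarboxylates 9 of 11 genes were tested, 2 above 0 and 7 below it, with a median of -0.15. SLC16A1 (MCT1), which moves lactate, pyruvate and ketone bodies together with a proton, lay the other way. It read 1529, 1838.2 and 1655.7 units in induced samples, against 1162.5, 1183.2 and 1430.3 units in control samples. The groups did not overlap, at 10.72 ± 0.13 and 10.31 ± 0.16 on the log2 scale (SD, n = 3 each), a difference of 0.41 (SE 0.11, adjusted p 0.179). Another bright probe set differed by 0.29 with overlap, and 2 dim ones by -0.01 and 0.09. SLC16A3 (MCT4), the lactate exporter of glycolytic cells, overlapped between groups with a difference of -0.15 (SE 0.21). SLC13A3, a sodium-dicarboxylate cotransporter, differed by 0.35 with overlap. SLC16A1 needs the chaperone basigin at the membrane: BSG read 3424 to 3555 units in induced samples, against 3424 to 3587 units in control samples, and differed by -0.02, and the related partners EMB and NPTN by 0.02 and 0.04.

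**Figure D3:**
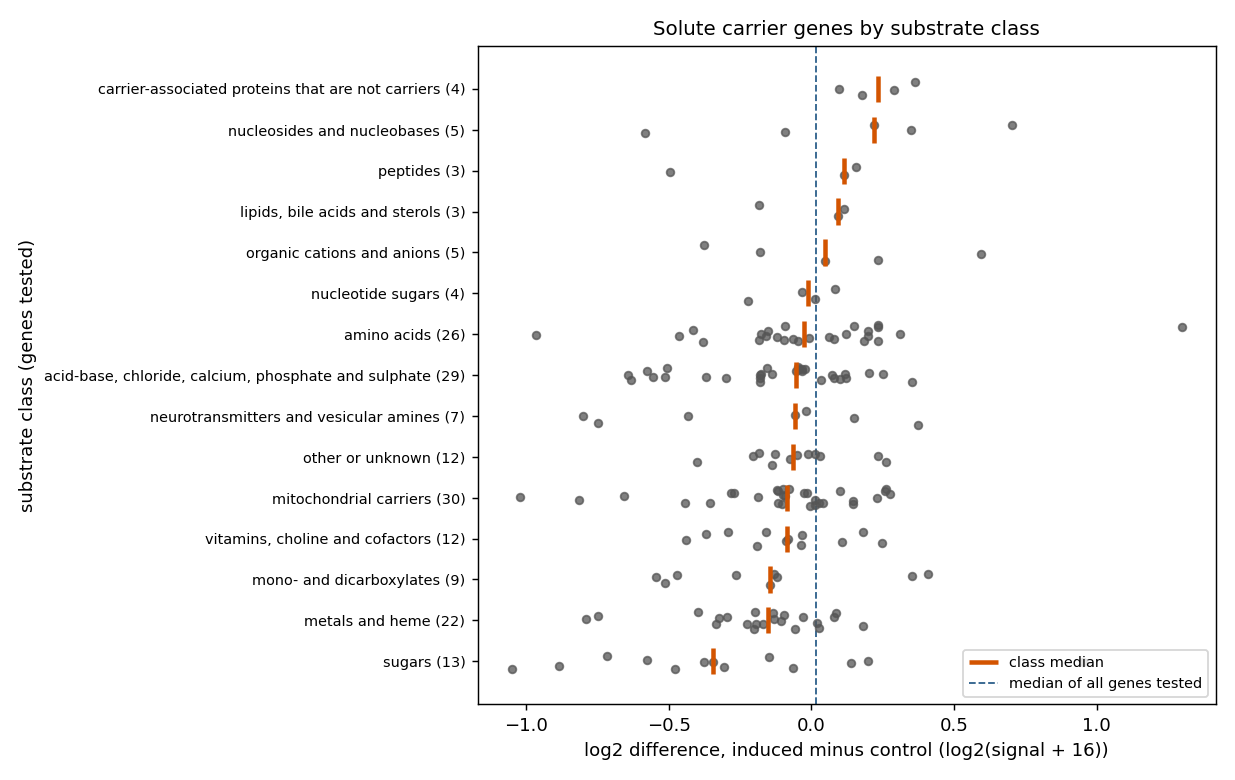
Log2 difference, induced minus control (horizontal axis), of each tested solute carrier gene by substrate class, with the number of genes tested in brackets, the class median as a bar and the median of all 10118 genes as a dashed line; points are spread vertically only to be seen. Sugar carriers have the lowest median, -0.35, and most classes hold genes on both sides of 0.

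The mitochondrial carriers of family 25 were the largest numbered family, with 30 of 33 tested. Of these 11 lay above 0 and 19 below it, with a median of -0.09. At an unadjusted p under 0.05, 0 were higher and 3 lower, where 5.61% and 6.02% of all genes were. SLC25A36, which brings pyrimidine nucleotides into mitochondria, read 165, 125.3 and 184.1 units in induced samples, against 232.2, 360.1 and 282.2 units in control samples. The groups did not overlap, at 7.43 ± 0.26 and 8.24 ± 0.30 on the log2 scale (SD, n = 3 each), a difference of -0.81 (SE 0.21, adjusted p 0.164), with -0.54 at another probe set. SLC25A30, a carrier first described in kidney mitochondria, read 14, 15.6 and 27 units in induced samples, against 32.6, 96.9 and 46.1 units in control samples. Its groups did not overlap and the difference was -1.02 (SE 0.30, adjusted p 0.210), although the induced values sat near the constant of 16 units added before the logarithm.

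The ADP/ATP and phosphate carriers of the same family had smaller differences. SLC25A5, an ADP/ATP exchanger that passes ATP out to the cytosol, had a difference of -0.12 (SE 0.15), and its relatives SLC25A4 and SLC25A6 had -0.10 and -0.12, each with overlap. The other probe sets of SLC25A4 and SLC25A6 had 0.09 and 0.11. SLC25A3, the phosphate carrier that feeds ATP synthesis, read 2437 to 2643 units in induced samples, against 2658 to 2777 units in control samples, a difference of -0.10 with no overlap (SE 0.07, adjusted p 0.622). Heme synthesis draws on both of the next members. SLC25A37, mitoferrin, which imports iron, had 174.3, 202.9 and 191.4 units in induced samples, against 143.9, 151.7 and 171 units in control samples, a difference of 0.26 with no overlap (adjusted p 0.634). SLC25A38, a glycine carrier, overlapped and differed by -0.27 (SE 0.18).

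Of the carriers of metals and heme 22 of 26 were tested, 5 above 0 and 17 below it, with a median of -0.15. All 3 members of family 41, magnesium carriers, lay below 0. SLC41A2 read 39.6, 31.3 and 41.2 units in induced samples, against 49.6, 130.6 and 58.2 units in control samples, with no overlap and a control sample 2 that stood above the others. Its difference was -0.75 (SE 0.29, adjusted p 0.361), and another probe set had -0.15. SLC41A3 read 171.7, 74.9 and 101.2 units in induced samples, against 359.5, 159.1 and 141.5 units in control samples, where repeat 1 was the highest of both groups and the groups overlapped. Its difference was -0.79 (SE 0.36, adjusted p 0.432), and its other probe sets had -0.78 and -0.40. SLC41A1 differed by -0.03, and its other probe sets had 0.03, 0.06 and -0.22.

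Zinc carriers form both of the next families. Of 9 tested members of family 30, which move zinc out of the cytosol, 7 lay below 0 with a median of -0.13, and of 7 tested members of family 39, which move it in, 5 lay below 0 with a median of -0.20. None of either family had an unadjusted p under 0.05. SLC30A1, the zinc exporter of the plasma membrane, read 575.7 to 699 units in induced samples, against 579.6 to 892.5 units in control samples, a difference of -0.20 (SE 0.17). SLC39A8, an importer of zinc and manganese, overlapped, with a difference of -0.20 (SE 0.32) that turned to 0.16 without control sample 2. SLC40A1, ferroportin, the iron exporter, read 39.1, 38.2 and 30.9 units in induced samples, against 29.1, 52.7 and 73 units in control samples. Its control arrays lay on both sides of the induced ones, and the difference was -0.33 (SE 0.25, adjusted p 0.701). No probe set carried the symbol SLC11A2, the iron importer of the gut.

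Carriers of bicarbonate, chloride, calcium, phosphate and sulphate were the most numerous class among the members, with 29 of 49 tested. Of these 9 lay above 0 and 20 below it, with a median of -0.05. At an unadjusted p under 0.05, 0 were higher and 5 lower, where 5.61% and 6.02% of all genes were. Those 5 were SLC4A10, SLC13A1, SLC26A4, SLC26A9 and SLC12A4, and most were weak. SLC4A10, a sodium-driven bicarbonate exchanger, read 37.7, 33.2 and 20.2 units in induced samples, against 39.4, 95.8 and 42.6 units in control samples. The groups barely failed to overlap, with a difference of -0.64 (SE 0.29, adjusted p 0.428), while another probe set had 0.18. SLC13A1, a sodium-sulphate cotransporter, had 5.3, 0.9 and 7.8 units in induced samples, against 8.7, 23.2 and 17.2 units in control samples, a difference of -0.63 (adjusted p 0.260). SLC26A4, pendrin, an exchanger of chloride, iodide and bicarbonate, had 14, 6.2 and 7.5 units in induced samples, against 21.7, 29.4 and 14.4 units in control samples, a difference of -0.58 (adjusted p 0.293). Both stayed under 16 units in every induced sample, so that their differences depend on the added constant: with 1 unit in its place they were as low as -1.77 and -1.19. Before normalization SLC13A1 was under 16 units on all 6 arrays, controls included, and SLC26A4 on 3 of them.

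Brighter ion carriers overlapped between the groups. SLC34A2, a sodium-phosphate cotransporter of absorptive epithelia, read 90.2, 70.3 and 145.1 units in induced samples, against 121.2, 150.1 and 170.2 units in control samples, a difference of -0.51 (SE 0.25, adjusted p 0.486), with -0.45 at its other probe set. SLC12A2 (NKCC1), which loads cells with sodium, potassium and chloride, differed by -0.37 (SE 0.21) with overlap. All 5 tested members of family 12 lay below 0 at their brightest probe sets, with a median of -0.18. At other probe sets SLC12A3 had 0.02 and 0.08, SLC12A7 0.01 and SLC12A8 0.05, while SLC12A4 had -0.62 and -0.36. With median-centred arrays 4 of 6 tested members lay below 0, and with no normalization 5 of 6. SLC20A1, a phosphate importer, was under 16 units on all arrays and differed by -0.02, with a sign that turned with median-centred arrays. SLC4A1, the anion exchanger of red cells, reached at most 5.6 units and was below the filter. SLC9A8, a sodium-proton exchanger of the Golgi, lay at 490.6 to 599.7 units in induced samples, against 464.6 to 606.2 units in control samples.

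Of the carriers of neurotransmitters and vesicular amines 7 of 12 were tested, 2 above 0 and 5 below it, with a median of -0.06. SLC32A1, which loads synaptic vesicles with GABA and glycine, had 4.6, 2.3 and 10.2 units in induced samples, against 37.3, 17.1 and 13.7 units in control samples. The groups did not overlap, and the difference was -0.80 (SE 0.24, adjusted p 0.218), with all induced values under 16 units. SLC6A12, a carrier of betaine and GABA, overlapped with a difference of -0.75 (SE 0.30, adjusted p 0.372). SLC18A2, the vesicular monoamine carrier, read 23.4 to 26.8 units in induced samples, against 33.3 to 47 units in control samples, a difference of -0.43 with no overlap (adjusted p 0.384).

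Of the nucleoside carriers 5 of 7 were tested, 3 above 0 and 2 below it, with a median of 0.22. SLC29A4, a member of the equilibrative family that also takes up monoamines, read 50.9, 54.4 and 27.6 units in induced samples, against 25.6, 14 and 22 units in control samples. Its groups did not overlap, although induced sample 3 was close to control sample 1, and the difference was 0.70 (SE 0.23, adjusted p 0.261), with 0.12 at another probe set. SLC29A3, the lysosomal member, read 126.5, 133.8 and 188.8 units in induced samples, against 119.2, 120 and 98.8 units in control samples, a difference of 0.35 with no overlap (adjusted p 0.577). SLC28A3, a sodium-coupled nucleoside carrier, differed by -0.58 with overlap (SE 0.35).

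Among organic cation and anion carriers, 5 of 10 genes were tested and their median was 0.05. SLC22A15L, named in the annotation for its likeness to SLC22A15, read 63.5, 54.2 and 51.4 units in induced samples, against 33, 25.8 and 37.2 units in control samples, a difference of 0.60 with no overlap (SE 0.19, adjusted p 0.239). Its 5 dimmer probe sets differed by -0.23 to 0.28, all with overlap. SLC47A1, a proton-coupled exporter of organic cations, differed by -0.38 with overlap (SE 0.21).

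The lipid carriers, with 3 of 5 genes tested, held a gene whose probe sets disagreed. SLC27A2, an acyl-CoA synthetase that takes up fatty acids, had 104.2, 104.2 and 105.1 units in induced samples at its brightest probe set, against 90.4, 96.9 and 103.6 units in control samples, a difference of 0.09 (SE 0.17). At the other probe set it had 22.6, 20.6 and 18.4 units in induced samples, against 38.9, 40.8 and 76.7 units in control samples. That is -0.86 (SE 0.23, unadjusted limma p 0.00376), with no overlap at either probe set and opposite directions. SLC27A4, a related fatty acid carrier, differed by -0.19 with overlap.

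In the remaining classes no gene had an unadjusted p under 0.05. In peptide carriers (3 of 4 tested, median 0.12) SLC15A1, the gut peptide carrier, overlapped with a difference of -0.50 (SE 0.34) that was -0.11 without control sample 1 and -0.80 without control sample 2, and SLC15A2 differed by 0.16. In carriers of vitamins, choline and cofactors (12 of 15 tested, median -0.09, 9 below 0) the largest differences were those of SLC44A3, a choline transporter-like protein, at -0.44 and of SLC22A5, the carnitine carrier, at -0.37, both with overlap. SLC23A3, a relative of the vitamin C carriers, had -0.29 at no more than 14.2 units. SLC19A1, the reduced folate carrier, had 0.25 (SE 0.23), which became -0.01 without control sample 2. The 4 nucleotide sugar carriers of family 35 had a median of -0.01: SLC35A3, for UDP-N-acetylglucosamine, had -0.22 (-0.0254 without control sample 2), the dim SLC35A5 had 0.08, and SLC35A1, for CMP-sialic acid, had 0.01, with a sign that turned with median-centred arrays and with no normalization. Among carriers of other or unknown substrate (12 of 17 tested, median -0.06) SLC16A12, a creatine carrier, had -0.40 with overlap (SE 0.20, adjusted p 0.498) and SLC2A9, a urate carrier, 0.23 without.

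The naming rule also took in 4 genes that are not carriers but are named after one. SLC9A3R1 and SLC9A3R2 are scaffolds that hold ion carriers at the apical membrane, and had differences of 0.29 and 0.36, each with overlap. Their other probe sets had 0.41 and -0.14. SLC7A6OS, transcribed opposite a carrier gene, and SLC4A1AP had 0.18 and 0.10. The sign of SLC9A3R2 turned without induced sample 1 or 2, and no gene of the 4 had an unadjusted p under 0.05.

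The probe sets of a gene gave further readings of many members. Of the 184 genes, 94 had more than 1 tested probe set, and in 58 of these all probe sets had the same sign. The median range between a gene's probe sets was 0.22, and no gene's probe sets lay more than 1 apart. Among the 13 of these genes with an unadjusted p under 0.05 at the brightest probe set, all probe sets had the same sign in 10. The median range between the probe sets of those 13 was wider, at 0.51. Over all 184 tested genes, 43 were measured only by probe sets that can match several transcripts, some of them among the 94.

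**Figure D4:**
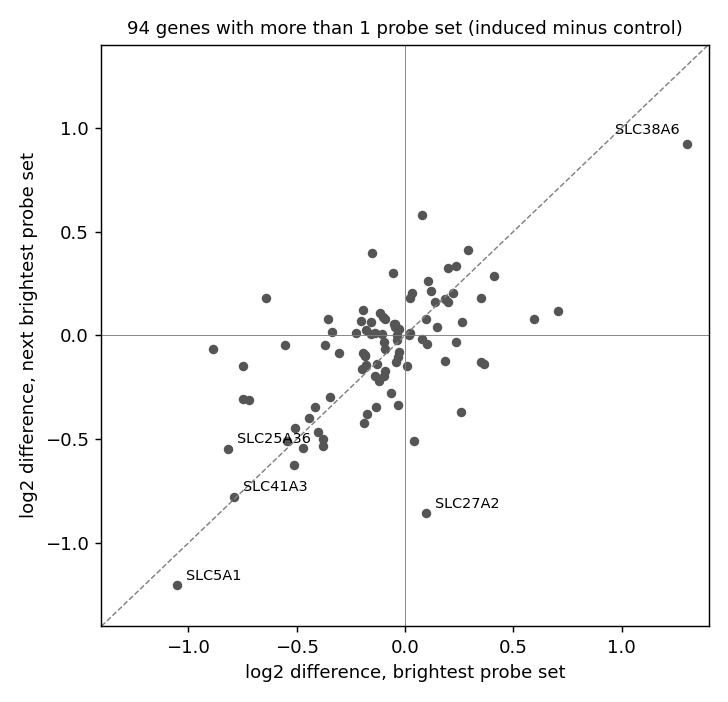
Log2 difference, induced minus control, at the next brightest tested probe set (vertical axis) against that at the brightest (horizontal axis) for the 94 solute carrier genes with more than 1 tested probe set; the dashed line marks equal values. SLC38A6 (1.30 and 0.92) and SLC5A1 (-1.05 and -1.20) lie at opposite ends, and SLC27A2 has 0.09 at one probe set and -0.86 at the other.

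Other genes of membrane transport were counted from fixed lists. Over all genes tested, 5.61% were higher and 6.02% lower at an unadjusted p under 0.05. Of 19 sodium, calcium and proton pump genes listed, 13 were tested, 10 lay below 0 and none passed at an adjusted p under 0.05. The calcium pump ATP2B1 had 253.9, 442.3 and 156.6 units in induced samples, against 142, 108.4 and 195.7 units in control samples, a difference of 0.79 with overlap (unadjusted limma p 0.04). Of 38 genes taken by their ABC symbol alone, whatever their function, 26 were tested and none passed. At an unadjusted p under 0.05, 0 were higher and 4 lower, among them ABCC2 at -0.60. Of 10 SLCO genes 6 were tested and none passed, with 1 higher and 2 lower at an unadjusted p under 0.05. The lower ones were SLCO5A1 at -0.37 and SLCO2A1 at -0.64. SLCO4A1, an organic anion carrier that moves thyroid hormone, had 1314.4, 888 and 547.3 units in induced samples, against 730.9, 259.5 and 424.6 units in control samples, a difference of 0.97 with overlap (unadjusted limma p 0.0246). Of the 18 genes listed for iron and heme handling 14 were tested and none passed, with 0 higher and 3 lower at an unadjusted p under 0.05. These were CP, ceruloplasmin, at -1.84, ALAS1, the rate-limiting enzyme of heme synthesis, at -0.59, and HMOX1, heme oxygenase, at -0.54. CP read 65.1, 31.3 and 91.2 units in induced samples, against 174, 452 and 196 units in control samples, with no overlap. Each of these lists was chosen with earlier results of these data known.

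**Figure D5:**
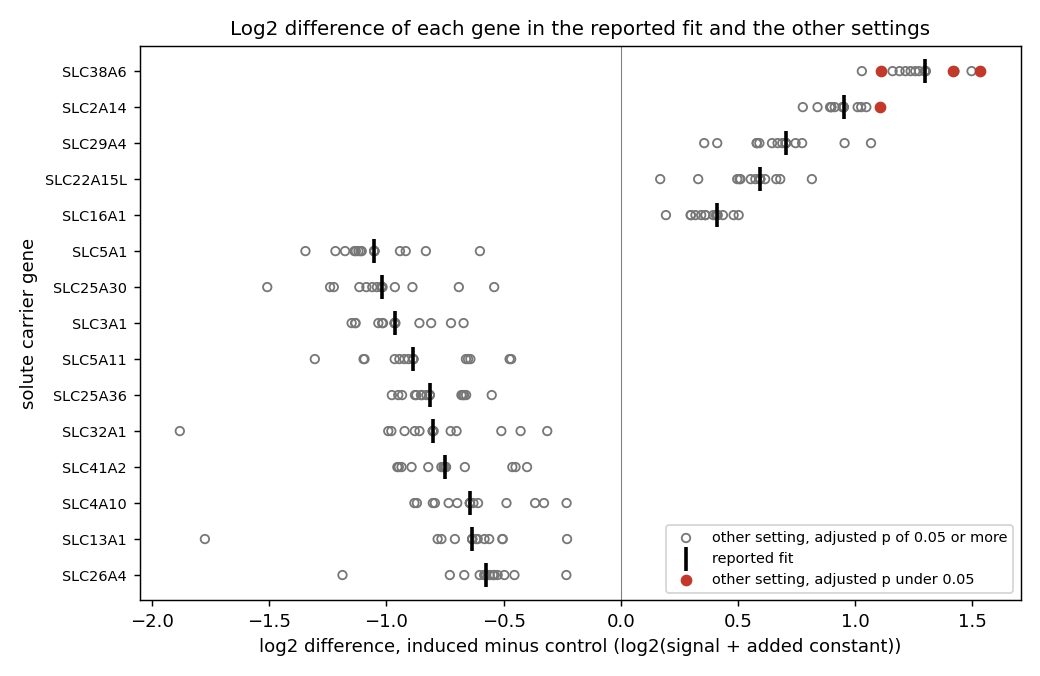
Log2 difference, induced minus control (horizontal axis), of the 15 solute carrier genes with non-overlapping groups drawn by array, in the reported fit (black bar) and under 16 other settings of normalization, added constant, filter, probe set choice, variance model and arrays left out (circles; filled where the adjusted p was under 0.05); the settings with the repeat number as a block are not drawn. In the settings drawn no gene crosses 0. SLC38A6 has 3 filled circles and SLC2A14 1, and the added constant of 1 draws out SLC32A1 and SLC13A1 to -1.88 and -1.77.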

How the data were processed

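The deposited table gives a linear MAS5 intensity for each probe set on each array, per the submitters' processing notes. The MAS5 version and its scaling target are not stated there. All 6 sample columns were used. Genes were named from the platform annotation (27166 of 37690 probe sets with 1 symbol, 177 with several, 10347 with none), so that 4 solute carrier probe sets with several genes were left out; all 259 symbols are current in RefSeq.

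The deposited intensity was increased by 16, taken to log2 and quantile normalized over the 6 arrays; probe sets whose mean fell below the 40th percentile were dropped. The test was the two-sided moderated one of limma 3.58.1 (R 4.3.3; lmFit, eBayes with trend, group alone), Benjamini-Hochberg adjusted over all 10118 genes or 22614 probe sets, at a threshold of 0.05, after a check on simulated data. The alternatives were other scalings, constants, filters, probe set choices and variance models, a repeat block and each array left out. An exact permutation test of 3 against 3 arrays cannot go below 0.1. For arrays, signal over background stands in for depth and their number limits the precision. The repeats are labelled biological but their embryos are not described, so the p-values reflect the spread among these samples, which may be partly technical.

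Members and lists were chosen with earlier results of these data known. Named genes are those called, up to 10 each way with non-overlapping groups and an unadjusted p under 0.05, the 2 lowest p-values per class and a fixed list; SLC7A1, SLC26A9, SLC12A4, SLC5A9, SLC37A1, SLC18A2, SLC25A3 and other relatives were added after their values were seen. Substrate classes follow families except where a gene was placed by itself, so that families such as 5 and 16 are split between classes. The class of carrier-associated proteins and the places of SLC13A1, SLC13A4 and SLC2A9L were set after values were seen.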

Additional observations from a re-analysis of the deposited data

How the results depend on the processing

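The count of 0 solute carrier genes called held under 14 of 18 other settings; it was 1 with all probe sets of a gene averaged and 0 to 2 with 1 array left out. Probe sets called ranged from 0 to 1 with 1 array left out. The groups share repeat numbers, but the labels do not say whether equal numbers share hosts, and the numbers were not taken to pair the samples: deviations of equal-numbered arrays correlated at 0.55, -0.15 and 0.07 (0.69, -0.03 and 0.23 with no normalization), not over 0.1 in every pair. With repeat as a block 0 genes were called, and 29 had an unadjusted p under 0.05, as did 14.3% of all genes. With the block and no normalization 9 of 183 solute carrier genes were called, against 359 of all 10156 genes. Of the 9, SLC38A6 was higher, and SLC25A30, SLC25A48, SLC32A1, SLC3A1, SLC5A1, SLC5A11, SLC5A9 and SLC6A12 were lower. Under that setting 11 of 327 solute carrier probe sets were called, with no count over all probe sets to set beside them. The 24 genes at an unadjusted p under 0.05 became 5 with no normalization (2.33% of all genes) and 11 to 32 with 1 array left out (6.3% to 13.8% of all genes). The 38 of all genes called became 9 with no normalization, 21 without a variance trend, 4 without repeat 1, and 1 to 120 with 1 array left out (20 higher and 18 lower as reported, 11 and 19 median-centred, 5 and 4 with no normalization). The median of -0.09 was -0.12 median-centred, -0.14 with no normalization with or without the block, -0.0504 with 64 units added, -0.0346 with no filter, and -0.101 to -0.0505 with 1 array left out. The median over all genes moved too, from 0.02 to -0.02 median-centred and -0.04 with no normalization. The solute carrier median minus that of all genes was -0.10 as reported and -0.09 under each of these scalings. Of 47 named genes 39 kept their sign in every setting that gave a value. The others crossed 0: SLC20A1 (0.0038 median-centred; -0.0452 to 0.0683 with 1 array left out), SLC27A2 (-0.38 over its probe sets), SLC35A1 (-0.0055 median-centred, -0.0255 with no normalization, with or without the block, -9.26e-05 without repeat 1, and -0.0437 to 0.124 with 1 array left out), SLC35A5 (-0.0024 without repeat 1; -0.0312 to 0.197), SLC7A5 (0.0380 without shared-match probe sets; -0.17 to 0.0470), SLC9A3R2 (-0.14 without repeat 1; -0.28 to 0.68), SLC19A1 (-0.0052 to 0.38) and SLC39A8 (-0.42 to 0.16), the last ranges also with 1 array left out. The causes were not tested.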
